A study of Homo sapiens with 2 samples.

Results

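The mitotic genes described here are 50 protein-coding genes, taken by symbol from a list, that are used in the division of a cell: the mitotic cyclins and their kinase, the other mitotic kinases, the spindle checkpoint, the ubiquitin enzymes of anaphase, the kinetochore, the mitotic kinesins, the spindle, cytokinesis and chromosome structure. All 50 were found in the deposited table of 18781 genes, each on 1 row. The table comes from an RNA immunoprecipitation (RIP) in T47D, a human breast cancer cell line of luminal type with the genotype given as WT, grown in DMEM with serum. Cell lysate was incubated with protein A beads that carried either an antibody to IMP1 or normal IgG, and the RNA left on the washed beads was sequenced, with 1 library for IMP1 and 1 for IgG. The study made these libraries to find lncRNAs that associate with IMP1, and the mRNAs of mitosis were read along with them. Because each precipitate gave 1 library from 1 cell line, no difference below has a replicate check, no test was run and no p-value is given.

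IMP1 is a cytoplasmic RNA-binding protein that binds many mRNAs and takes part in their localization, stability and translation. Mitosis is driven by CDK1 bound to cyclins A and B, together with the Polo-like and Aurora kinases. The spindle checkpoint holds the anaphase-promoting complex or cyclosome (APC/C) inactive until every kinetochore is attached to microtubules, and the APC/C with CDC20 then marks securin and cyclin B for destruction. Most of these genes are transcribed late in the cell cycle, and many of their promoters hold a cell cycle genes homology region (CHR), whose letters are TTTGAA.

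Each value is in FPKM, fragments per kilobase of transcript, taken relative to the total number mapped in that library, so that levels of different genes can be set side by side. The libraries were compared as the log2 ratio of (FPKM + 0.1), IMP1 over IgG. A value of 0 is an equal level, 1 is a 2-fold higher and -1 a 2-fold lower level in the IMP1 precipitate, and the added 0.1 understates the difference of low genes. Genes at or past 2-fold are called higher or lower below. The table gives no read counts, so library depths are unknown and no counting interval can be given.

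The libraries differed over the whole table before any mitotic gene was considered. The IgG library listed 7270 genes at 0 and the IMP1 library 1202. Of the markers of luminal breast epithelium, 9 of 15 were higher in the IMP1 library, with 2 (TFF1 and ELF3) listed at 0 with IgG and none at 0 with IMP1, and their summed FPKM was 1867 with IMP1 and 816 with IgG. The highest was AGR2 with IMP1 (595 FPKM) and XBP1 with IgG (226 FPKM). Of 15 markers of mesenchymal cells, 14 were lower in the IMP1 library, 6 were listed at 0 there (DCN, SPARC, PDGFRB, LUM, COL1A2 and ZEB2) and none with IgG. Their summed FPKM was 3.52 with IMP1 and 250.2 with IgG, and FN1 was the highest in both libraries, at 1.30 and 79.7 FPKM. Of 10 blood cell markers, 5 were in the table, with a summed FPKM of 7.54 and 327, nearly all of it from CD74 at 6.42 FPKM with IMP1 and 305 FPKM with IgG. HLA-DRA was at 0 with IMP1, and 2 of the 5 were at 0 with IgG. Whether these differences have a part in the levels of the mitotic genes was not tested.

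All 50 mitotic mRNAs were above 0 in the IMP1 library, from 0.588 FPKM for KIF14 to 59.8 FPKM for PTTG1, with a median of 4.24 FPKM. In the IgG library 44 were above 0, the highest was SMC4 at 89.5 FPKM, and the median was 8.24 FPKM. Summed over the 50 genes, the level was 529 FPKM with IMP1 and 745 FPKM with IgG. In the IMP1 library 16 mitotic genes (32% of 50) were at least 2-fold higher, where 39.9% of all genes were, and 19 (38%) were at least 2-fold lower, where 29.9% of all genes were. The other 15 lay within 2-fold. The median log2 ratio was -0.13 over the mitotic genes and 0.40 over all genes. Among the 44 mitotic genes above 0 in both libraries, 10 (22.7%) were higher against 17.5% of all such genes, and 19 (43.2%) were lower against 43.8%. There the median log2 ratio was -0.46 for the mitotic genes and -0.72 for all 10309 genes. These shares lie near the background in both directions, so the list as a whole is not set apart from the other genes of the table by them. At or over 1 FPKM in both libraries, 8 of 38 mitotic genes (21.1%) were higher against 11.5% of all such genes. There 16 (42.1%) were lower against 44.0%. The larger share higher under this filter rests on few genes and was not tested.

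**Figure D1:**
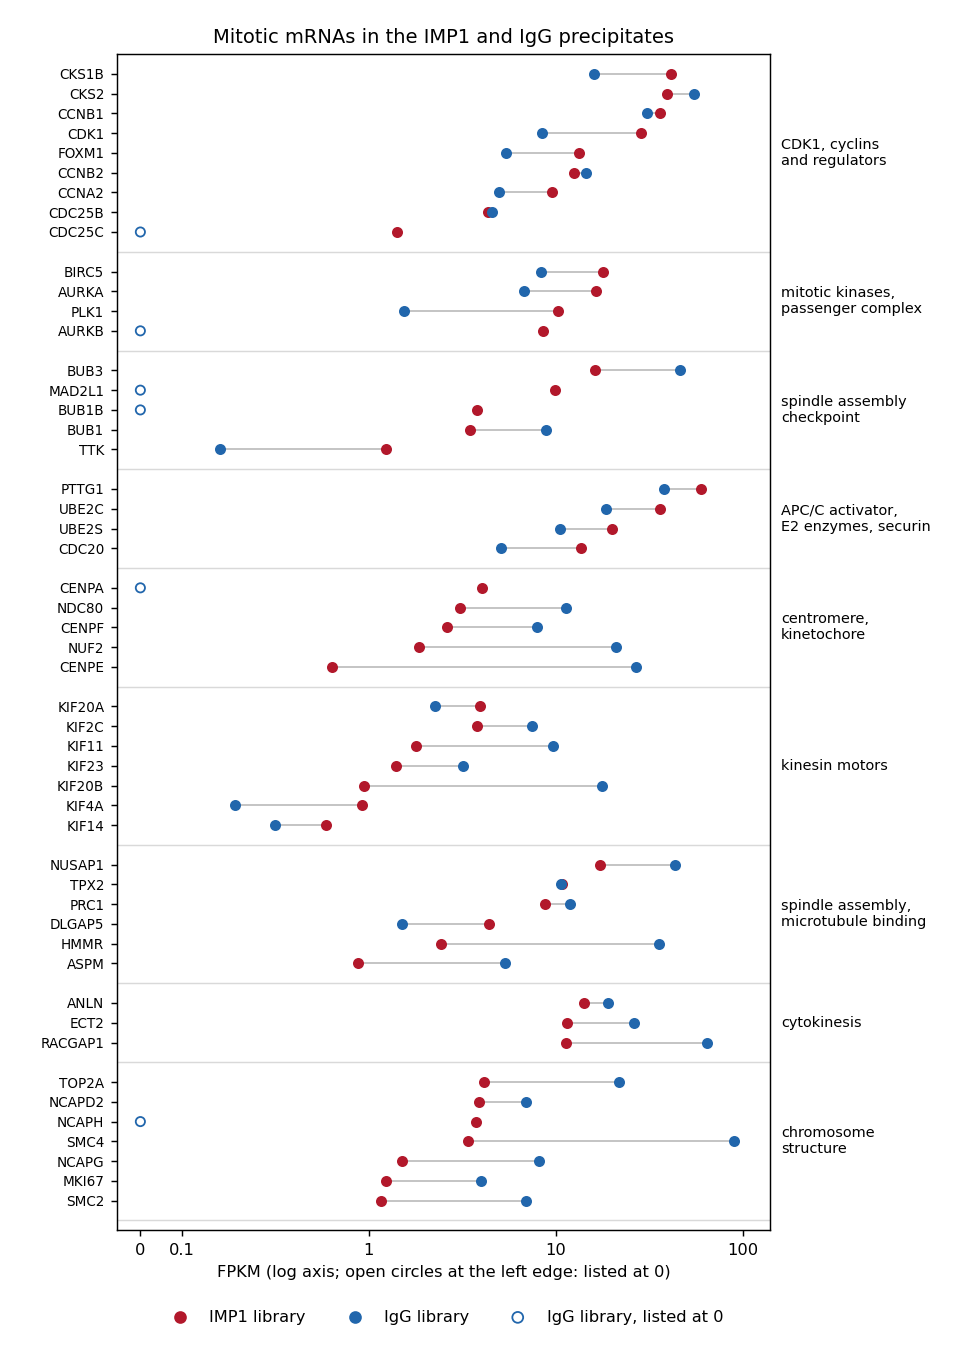
FPKM of each of the 50 mitotic mRNAs in the IMP1 library (red) and the IgG library (blue) on a log axis, grouped by role, with open circles at the left edge for genes listed at 0 with IgG. Red lies to the right of or close to blue for the cyclins, kinases and APC/C genes, and blue lies far to the right of red for SMC4, CENPE, HMMR, NUF2 and KIF20B.

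The number of genes on each side depends on how the libraries are scaled. As deposited, 16 mitotic genes were higher and 19 lower, so that 45.7% of those past 2-fold were higher. When the IMP1 values were multiplied so that the median gene of those at or over 1 FPKM in each library had equal levels, a log2 shift of 0.79, 23 were higher and 12 lower (65.7% higher). With equal FPKM sums, a shift of 1.88, 30 were higher and 5 lower (85.7%), and with equal sums outside the 50 highest genes of either library, a shift of 0.57, 22 were higher and 14 lower (61.1%). Over all genes the share higher among those past 2-fold was 57.2% as deposited, 69.9% with the median gene set equal, 83.1% with equal sums and 66.4% with equal sums outside the highest genes. A scaling multiplies every IMP1 value by the same number and so shifts the mitotic genes together. The ratio compares RNA left on beads and does not measure the level of an mRNA in the cells, and within either bulk precipitate fewer cells in mitosis and less RNA per cell cannot be told apart.

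CDK1 and the genes that turn it on or assist it were at least as high with IMP1 as with IgG in most cases. Of 9 genes, 4 (44.4%) were higher, near the 39.9% of all genes, and 5 were within 2-fold. None was lower, against 29.9% of all genes. The rescalings all raise the IMP1 values, so they could not make any of them lower and are no check on this. The counts of the role groups that follow are to be read against these same shares of all genes, which include genes listed at 0. No gene of the APC/C, kinesin, spindle and cytokinesis groups is listed at 0. Their counts are to be read against all genes above 0 in both libraries, of which 17.5% were higher and 43.8% lower. CDK1, the kinase that starts mitosis, had 28.5 FPKM with IMP1 and 8.40 FPKM with IgG, which is a log2 ratio of 1.75. It lies at chr10:62538089-62554610 of build hg19 and is alone in its deposited locus. Its partner cyclin B1 (CCNB1) was high in both precipitates, at 36.2 and 30.6 FPKM, and differed by 0.24 on the log2 scale. Cyclin B2 (CCNB2) had 12.6 FPKM with IMP1 and 14.5 FPKM with IgG. Cyclin A2 (CCNA2), which acts from S phase into early mitosis, had 9.55 and 4.98 FPKM, a log2 ratio of 0.92 that lies just inside the 2-fold line. FOXM1, a transcription factor of G2 and M phase genes, had 13.3 FPKM with IMP1 and 5.38 FPKM with IgG, for a log2 ratio of 1.29. The small CDK-binding proteins CKS1B and CKS2 are close relatives and did not share a direction. CKS1B had 41.3 FPKM with IMP1 and 16.0 FPKM with IgG (log2 ratio 1.36), whereas CKS2 had 39.2 and 54.7 FPKM (log2 ratio -0.48). Of the phosphatases that activate CDK1, CDC25B was nearly equal at 4.36 and 4.55 FPKM, and CDC25C had 1.41 FPKM with IMP1 and was listed at 0 with IgG.

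In the role group of mitotic kinases and the chromosomal passenger complex, 4 of 4 members were higher with IMP1, where 39.9% of all genes were. As deposited, no other role group of the list had all members higher. The rescalings all raise the IMP1 values, so these 4 could only stay higher under them. The count depends on which genes were placed in the group. Among passenger complex genes outside the list, INCENP (log2 ratio 0.53) and CDCA8 (-0.20) were within 2-fold. Kinases of other groups or outside the list went both ways, with CDK1 at 1.75, TTK at 2.36, BUB1 at -1.34 and MASTL at -1.43. NEK2 was within 2-fold at -0.46. PLK1, the Polo-like kinase of mitotic entry and centrosome maturation, had 10.3 FPKM with IMP1 and 1.54 FPKM with IgG. Its log2 ratio of 2.66 was the highest among mitotic genes above 0 in both libraries, although without the added 0.1 its plain ratio of 6.68 came after the 7.72 of TTK. PLK1 lies at chr16:23688977-23724821 (hg19). AURKA, the Aurora kinase of the spindle poles, had 16.3 and 6.73 FPKM, a log2 ratio of 1.26. AURKB, the Aurora kinase of the passenger complex, lies at chr17:8108056-8113918 (hg19), had 8.57 FPKM with IMP1 and was listed at 0 with IgG. BIRC5 (survivin), which anchors AURKB at the centromere, had 17.9 FPKM with IMP1 and 8.33 FPKM with IgG, for a log2 ratio of 1.09.

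The APC/C activator, the E2 enzymes that work with the APC/C and its substrate securin all lay above equal levels and in a narrow range, with log2 ratios from 0.65 to 1.40. CDC20, the activator, had 13.6 FPKM with IMP1 and 5.08 FPKM with IgG and was the only gene of these 4 past 2-fold. UBE2C, which starts ubiquitin chains for the APC/C, had 36.0 and 18.6 FPKM. UBE2S, which extends them, had 20.0 and 10.5 FPKM. PTTG1, the gene of securin, at chr5:159848829-159855748 (hg19), was the highest mitotic mRNA of the IMP1 library with 59.8 FPKM and had 38.0 FPKM with IgG. UBE2C and UBE2S stood in nearly the same proportion in both precipitates, 1.81 with IMP1 and 1.77 with IgG. With each of the rescalings, which all raise the IMP1 values, all 4 were at least 2-fold higher. Of all genes, 46.3% to 63.7% were higher under these rescalings.

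The spindle checkpoint was divided, with 3 of 5 genes higher and 2 lower. MAD2L1, the checkpoint protein that captures CDC20, had 9.84 FPKM with IMP1 and was listed at 0 with IgG, and BUB1B, its partner in the inhibitory complex, had 3.78 FPKM and was likewise listed at 0 with IgG. TTK, the kinase that starts checkpoint signalling, was low in both libraries, at 1.23 FPKM with IMP1 and 0.159 FPKM with IgG, for a log2 ratio of 2.36 that became 0.94 when 1 in place of 0.1 was added to each value. BUB3, which brings BUB1 and BUB1B to the kinetochore, went the other way with 16.1 and 46.2 FPKM, a log2 ratio of -1.52. BUB1 had 3.46 FPKM with IMP1 and 8.90 FPKM with IgG, for a log2 ratio of -1.34. With any of the rescalings, none of the 5 was 2-fold lower, and with equal sums BUB1 and BUB3 lay above equal levels.

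Of the 5 kinetochore and centromere genes of the list, 4 were lower and 1 was higher, with log2 ratios from -5.20 to -1.55 for those above 0 in both libraries. CENPE, the kinesin that carries chromosomes to the middle of the spindle, lies at chr4:104026963-104119566 (hg19) and had 0.632 FPKM with IMP1 and 26.9 FPKM with IgG. Its log2 ratio of -5.20 was the lowest of the 50 genes. CENPE was above 40.1% of all genes in the IMP1 library and above 92.0% in the IgG library. NUF2 and NDC80 are subunits of the complex that binds spindle microtubules. NUF2 had 1.85 and 20.9 FPKM (log2 ratio -3.43), and NDC80 had 3.08 and 11.3 FPKM (log2 ratio -1.85). CENPF, a large protein of the outer kinetochore, had 2.63 FPKM with IMP1 and 7.92 FPKM with IgG, for a log2 ratio of -1.55. CENPA, the histone H3 variant that marks the centromere, was the exception, with 4.03 FPKM with IMP1 and a listing at 0 with IgG. With equal FPKM sums CENPF alone of the lower 4 came out above equal levels, at a log2 ratio of 0.28, while CENPE and NUF2 were still more than 2-fold lower. These 5 do not stand for the kinetochore at large, since of 31 further kinetochore and centromere genes 17 were higher and 9 lower. Of the 31, 12 were listed at 0 with IgG. Of the 19 above 0 in both libraries 5 (26.3%) were higher and 9 (47.4%) lower, against 17.5% and 43.8% of all such genes.

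The 7 mitotic kinesins covered almost the whole range, with 3 lower (42.9%), 1 higher (14.3%) and 3 within 2-fold. Both shares are near the 43.8% and 17.5% of all genes above 0 in both libraries. KIF20B, which acts in the completion of cytokinesis, lies at chr10:91461367-91534700 (hg19) and had 0.944 FPKM with IMP1 and 17.6 FPKM with IgG, for a log2 ratio of -4.09. KIF11, the motor that pushes the spindle poles apart, had 1.80 and 9.62 FPKM (log2 ratio -2.36). KIF23, the motor subunit of centralspindlin, had 1.40 and 3.18 FPKM (log2 ratio -1.13). KIF2C, which depolymerizes microtubules at centromeres, had 3.78 FPKM with IMP1 and 7.46 FPKM with IgG and missed the 2-fold line at -0.96. Above equal levels were KIF20A with 3.94 and 2.24 FPKM (0.79 on the log2 scale) and the low mRNAs KIF14, with 0.588 and 0.316 FPKM, and KIF4A, with 0.924 and 0.193 FPKM. KIF4A, a chromosome-bound kinesin, had a log2 ratio of 1.81, which was 0.69 with 1 added to each value.

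Among 6 genes of spindle assembly and microtubule binding, 3 were lower, 1 was higher and 2 were within 2-fold. HMMR, a spindle protein of the TPX2 pathway, had 2.43 FPKM with IMP1 and 35.6 FPKM with IgG, for a log2 ratio of -3.82. ASPM, which works at spindle poles, had 0.879 and 5.33 FPKM (-2.47), and NUSAP1, which bundles spindle microtubules, had 17.2 and 43.1 FPKM (-1.32). TPX2, the protein that activates AURKA on the spindle, was equal in both precipitates at 10.7 FPKM. PRC1, the crosslinker of the central spindle, had 8.78 and 11.9 FPKM, a log2 ratio of -0.43. DLGAP5, which stabilizes the microtubules at kinetochores, stood apart with 4.37 FPKM with IMP1 and 1.51 FPKM with IgG, for a log2 ratio of 1.47. In cytokinesis 2 of 3 genes were lower. RACGAP1, the partner of KIF23 in centralspindlin, was the second highest mitotic mRNA of the IgG library, with 64.0 FPKM against 11.3 FPKM with IMP1 (log2 ratio -2.49). ECT2, which centralspindlin recruits to activate RhoA, had 26.1 FPKM with IgG and 11.5 FPKM with IMP1 (-1.18). ANLN, a scaffold of the contractile ring, was within 2-fold at 14.1 FPKM with IMP1 and 19.0 FPKM with IgG. With equal FPKM sums the medians of the kinesins, of the spindle genes and of the cytokinesis genes turned to 0.89, 0.99 and 0.68.

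Chromosome structure had 5 of 7 genes lower and 1 higher. SMC4, an ATPase subunit of condensin, was the highest mitotic mRNA of the IgG library with 89.5 FPKM and had 3.40 FPKM with IMP1, a log2 ratio of -4.68. SMC2, with which SMC4 forms the core of condensin, had 1.16 and 6.93 FPKM (-2.47). Of the condensin I subunits, NCAPG had 1.51 FPKM with IMP1 and 8.14 FPKM with IgG (-2.36), and NCAPD2 was within 2-fold with 3.86 and 6.91 FPKM (-0.82). NCAPH, the subunit that closes the condensin I ring, differed from them in having 3.73 FPKM with IMP1 and a listing at 0 with IgG. TOP2A, which untangles sister DNA, had 4.13 and 21.6 FPKM (-2.36), and MKI67, the gene of the Ki-67 protein that coats mitotic chromosomes, had 1.24 and 3.97 FPKM (-1.60). With equal sums MKI67 came out at 0.19.

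**Figure D2:**
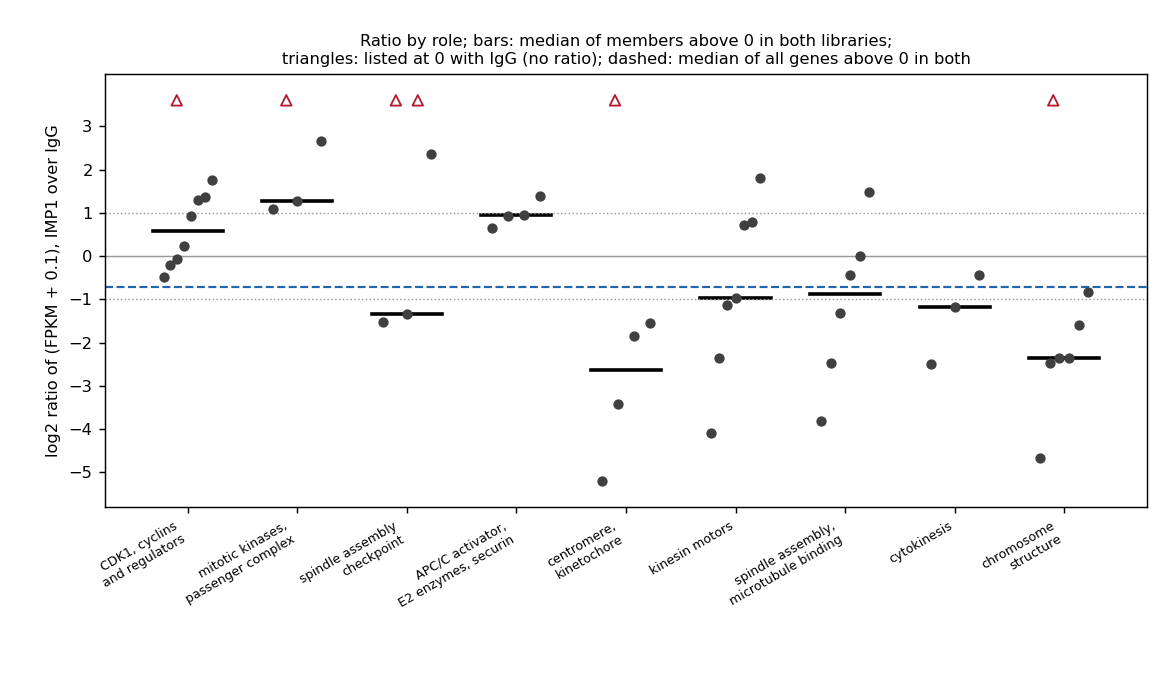
log2 ratio of (FPKM + 0.1), IMP1 over IgG, of each mitotic gene by role, with bars at the median of the genes above 0 in both libraries, triangles (with no ratio) for genes listed at 0 with IgG, dotted lines at 2-fold and a dashed line at the median of all genes above 0 in both libraries (-0.72). The medians of the CDK1, kinase and APC/C groups lie above 0, at 0.58, 1.26 and 0.94, and those of the other role groups below it, of which the checkpoint, kinesin, spindle and cytokinesis medians turned to 0.51, 0.89, 0.99 and 0.68 with equal FPKM sums.

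The role groups of the list were also joined. The CDK1 group, the mitotic kinases and the APC/C group have 17 genes, of which 9 were higher, none was lower and 8 were within 2-fold, with a median log2 ratio of 1.09. The kinetochore, kinesin, spindle, cytokinesis and chromosome groups have 28 genes, of which 4 were higher, 17 were lower and 7 were within 2-fold, with a median of -1.44. Of all genes 39.9% were higher and 29.9% lower, with a median of 0.40. This joining of groups was made after the values were seen, so it describes these libraries and has no test. It leaves out the 5 checkpoint genes, of which 3 were higher and 2 lower. Genes of like role outside the list did not all divide in this way. Of mitotic entry and exit genes 10 of 18 were higher and 2 lower, but 7 were listed at 0 with IgG. Of the 11 above 0 in both libraries 3 were higher and 2 lower. Counts above 0 in both libraries are to be read against the 17.5% higher and 43.8% lower of all such genes. The 3 higher ones of the 11 include WEE1, at 8.96e-10 FPKM with IgG. Of further kinesin, spindle and cytokinesis genes 7 of 32 were higher and 13 lower, and of the 27 above 0 in both 2 and 13. The 16 APC/C genes are subunits with the regulators FZR1 and FBXO5. Of these 16, 8 were lower and 2 higher, both of the 2 listed at 0 with IgG. Of 31 further kinetochore and centromere genes, 17 were higher and 9 lower. Of the joined 17 and 28, 15 and 26 were above 0 in both libraries, with medians of 0.95 and -1.58 against -0.72 for all such genes. Of the 15, 7 were higher and none lower, and of the 26, 2 were higher and 17 lower. With the median gene set equal, 14 of the 17 were higher and none lower, and 6 of the 28 were higher and 12 lower, where 49.3% of all genes were higher and 21.3% lower. With equal sums all 17 were higher, while 10 of the 28 were higher and 5 lower and the median of the 28 turned to 0.42, where 63.7% of all genes were higher and 13.0% lower. The 5 that were lower under all scalings were CENPE, SMC4, KIF20B, HMMR and NUF2.

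**Figure D3:**
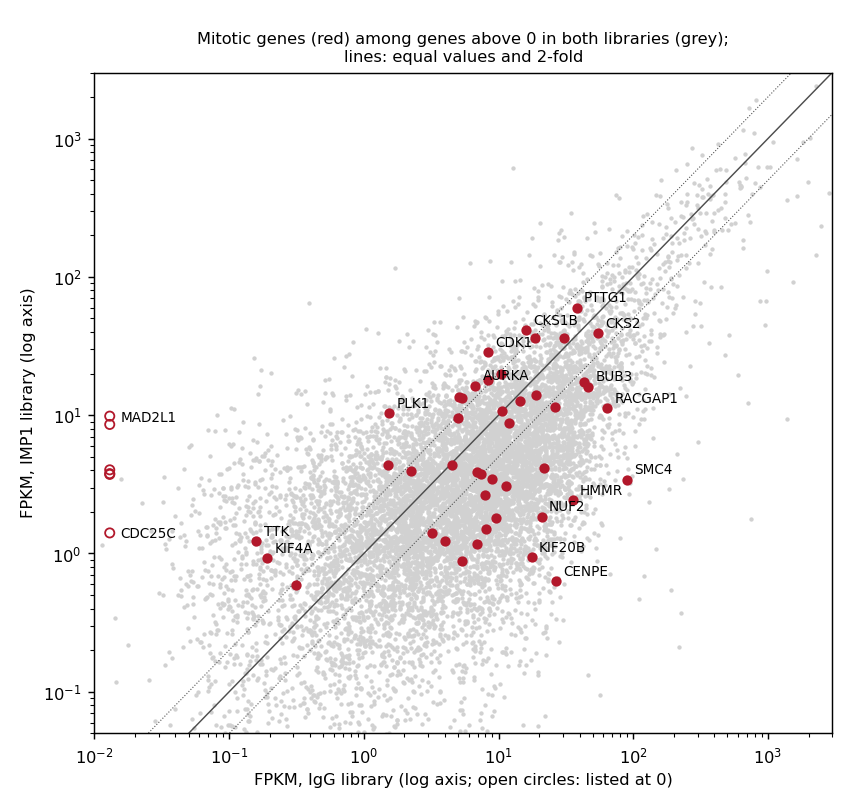
FPKM in the IMP1 library against FPKM in the IgG library, both on log axes, for the mitotic genes (red) and all genes above 0 in both libraries (grey), with lines for equal values and 2-fold, and open circles at the left for mitotic genes listed at 0 with IgG. PLK1, TTK and KIF4A lie far above the line of equal values, and CENPE, KIF20B, SMC4 and HMMR lie far below it.

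The order of the mitotic genes by level differed in part between the precipitates. With IMP1 the 5 highest mitotic mRNAs were PTTG1, CKS1B, CKS2, CCNB1 and UBE2C, and with IgG they were SMC4, RACGAP1, CKS2, BUB3 and NUSAP1. CKS2 is in both, but this depends on the cut at 5. PTTG1 was at rank 6 and CCNB1 at rank 8 with IgG, while SMC4 was at rank 34 with IMP1. The same overlap was not taken over all genes. SMC4 was above 98.1% of all genes in the IgG library and above 72.1% in the IMP1 library. PTTG1 was above 94.8% and 98.0%. Across the 44 mitotic genes above 0 in both libraries, Spearman's rho between the levels was 0.40, and across all 10309 such genes it was 0.64. Both values describe a pair of libraries in which all genes share the same depth and precipitate.

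Related or partner genes were set side by side, since each ratio within a library does not depend on how the libraries are scaled. The pairs were chosen after their values were seen. KIF20A and KIF20B are kinesins of the same family, and KIF20A was 4.18 times KIF20B in the IMP1 library while KIF20B was 7.85 times KIF20A in the IgG library. For the large kinetochore proteins, CENPF was 4.16 times CENPE with IMP1 and CENPE was 3.40 times CENPF with IgG. The order also changed for the kinase and its activator, with AURKA at 1.52 times TPX2 with IMP1 and at 0.630 times TPX2 with IgG, and for the microtubule-binding subunits, with NDC80 at 1.67 times NUF2 with IMP1 and 0.544 times with IgG. CKS1B and CKS2 were nearly equal with IMP1, at a ratio of 1.05, and CKS2 was 3.42 times CKS1B with IgG. The condensin core kept its order but not its proportion, as SMC4 was 2.92 times SMC2 with IMP1 and 12.9 times with IgG. RACGAP1 was 8.04 times its centralspindlin partner KIF23 with IMP1 and 20.1 times with IgG. The B cyclins kept nearly the same proportion, with CCNB1 at 2.88 times CCNB2 with IMP1 and 2.11 times with IgG.

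**Figure D4:**
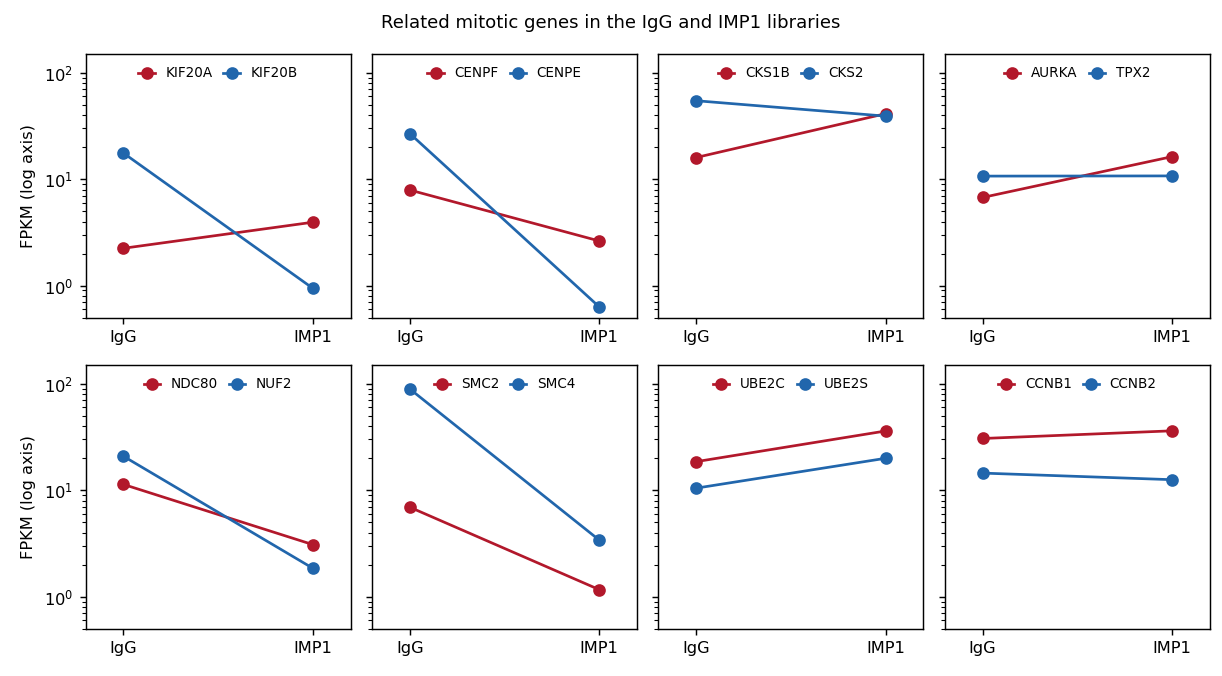
FPKM (log axis) of both genes of 8 pairs of related or partner mitotic genes in the IgG and the IMP1 library, with a line joining the 2 values of a gene. The lines cross for KIF20A and KIF20B, CENPF and CENPE, AURKA and TPX2, and NDC80 and NUF2, meet at the IMP1 end for CKS1B and CKS2, and run nearly parallel for UBE2C and UBE2S.

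Listing at 0 with IgG took in CDC25C, AURKB, MAD2L1, BUB1B, CENPA and NCAPH. These 6 are among the 16 higher genes and have no ratio, since the value they would be divided by is 0. Their levels in the IMP1 library ran from 1.41 to 9.84 FPKM. In the band from 0.5 to 2 FPKM with IMP1, 1 of 13 mitotic genes was listed at 0 with IgG, against 43.3% of 4628 genes of the table. From 2 to 5 FPKM it was 3 of 14 against 23.8%, from 5 to 10 FPKM 2 of 4 against 13.9%, and from 10 to 60 FPKM none of 19 against 5.93%. A 0 in these files may be a failed estimate as well as a lack of reads, and without read counts the files do not say which.

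The deposited locus of 19 of the 50 genes also holds other genes of the table, so their reads may have been shared out among neighbours. SMC4 shares its locus with IFT80, at 2.27 FPKM with IMP1 and 23.1 FPKM with IgG, and with TRIM59, at 3.72 and 22.5 FPKM, both lower with IMP1 as SMC4 was. UBE2S shares its locus with RPL28, a ribosomal protein gene that had 446 FPKM with IMP1 and 628 FPKM with IgG. KIF20A shares its locus with CDC23 and BRD8, which had 6.16 and 2.85 FPKM with IMP1 and 27.2 and 10.2 FPKM with IgG. Some neighbours of higher genes were lower. FAM53C, in the locus of CDC25C, had 5.22 and 24.9 FPKM, and PDZD11, in that of KIF4A, had 8.83 and 36.9 FPKM. In the locus of FOXM1, RHNO1 was lower (log2 ratio -1.58), while FKBP4 (1.08) and ITFG2 (1.60) were higher. The locus of PRC1 holds PRC1-AS1 at 2.31 FPKM with IMP1 and 0 with IgG, and without known strand information the reads of such a pair cannot be told apart. Copies of CKS1B and UBE2S are listed as CKS1BP6, at 1.28 FPKM with IMP1, and UBE2SP1, at 1.87 FPKM, each at 0 with IgG, which leaves the values of CKS1B and UBE2S uncertain by reads that fit more than 1 copy. Without the genes that share a locus, the joined regulator groups had 6 of 12 higher and none lower, and the joined structural groups had 2 of 15 higher and 11 lower. Of all genes, sharing a locus or not, 39.9% were higher and 29.9% lower.

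Among the mitotic genes the log2 ratio moved with the length of the locus, and length went along with role. Among the 28 mitotic genes alone in their locus and above 0 in both libraries, Spearman's rho between the length of the locus and the log2 ratio was -0.49, against -0.11 over 5436 such genes of the table. Of the 10 with a locus under 25 kb, 4 were higher and 1 was lower, with a median log2 ratio of 0.80, and of the 18 with a longer locus, 3 were higher and 12 were lower, with a median of -1.47. Of all such genes of the table, 18.6% were higher and 40.7% lower under 25 kb, and 14.6% and 49.3% with a longer locus, with medians of -0.61 and -0.96. CDC20 (4.25 kb), CKS1B (4.60 kb), CDK1 (16.5 kb) and AURKA (22.9 kb) were the higher genes with a short locus, and BUB3 (11.1 kb) the lower one. CENPE (92.6 kb) and KIF20B (73.3 kb) were lower with long loci. Apart from BUB3, all of the 10 genes under 25 kb belonged to the CDK1, kinase and APC/C groups. Of those groups only CCNB2 (28.2 kb) and PLK1 (35.8 kb) were among the longer loci. Length and role therefore cannot be told apart in these genes. The limit of 25 kb was chosen after the values were seen, and the length is that of the locus with its introns, not that of the mRNA.

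The letters of the CHR were looked for in mitotic genes on both sides. Promoters from RefSeq (GRCh38.p14, 250 bases before to 50 after the start of the gene) were matched for 42 of the 50 genes. The letters TTTGAA of the CHR, on either strand, were in 31 of 42 (73.8%), against 15.8% of 15843 protein-coding genes, and CCAAT, the letters that NF-Y binds, was in 33 (78.6%) against 42.1%. Both were in 24 (57.1%) against 8.17%. The letters TTTGAA were in 10 of 12 promoters of higher genes, in 15 of 17 of lower genes and in 6 of 13 of those within 2-fold. The windows below show where the letters stand in genes on either side, and they were chosen for holding them. CENPE, with the lowest ratio of all, does not have the letters in its promoter window. The windows have the 3 highest and 3 lowest ratios among genes above 0 in both libraries that have the letters on the strand of the gene within 50 bases of the start, all on the plus strand, in GRCh38.p14, with TTTGAA in capitals:
PLK1: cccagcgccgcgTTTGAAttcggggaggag
KIF4A: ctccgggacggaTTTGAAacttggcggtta
CDK1: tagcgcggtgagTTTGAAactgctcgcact
KIF20B: tggccgccattgTTTGAAtttgaaaacggt
HMMR: gggagatttgaaTTTGAAaccggtagggag
NUF2: ggaggcggcaagTTTGAAaagtgatgacgg
The windows lie at chr16:23678848-23678877 for PLK1, chrX:70290058-70290087 for KIF4A, chr10:60778453-60778482 for CDK1, chr10:89701602-89701631 for KIF20B, chr5:163460598-163460627 for HMMR and chr1:163321958-163321987 for NUF2. PLK1, KIF4A and CDK1 had log2 ratios of 2.66, 1.81 and 1.75, and KIF20B, HMMR and NUF2 had -4.09, -3.82 and -3.43. KIF20B and HMMR hold the letters a second time beside the marked ones. A match of 6 letters describes the sequence and is not a measured binding site.

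Other genes of mitosis were taken from a list of 119 genes with known roles in the same processes. Of these, 43 (36.1%) were higher and 40 (33.6%) lower with IMP1, near the 39.9% and 29.9% of all genes, and 31 were listed at 0 with IgG. Among the 88 above 0 in both libraries, 12 (13.6%) were higher and 40 (45.5%) lower, against 17.5% and 43.8% of all such genes, with a median log2 ratio of -0.79. The 12 include WEE1, which counts as above 0 with IgG at only 8.96e-10 FPKM. Where both levels were at or over 1 FPKM, the highest ratios belonged to ZWINT, a kinetochore scaffold protein, with 21.0 and 2.90 FPKM (2.82), TRIP13, the ATPase that takes checkpoint complexes apart, with 8.83 and 1.58 FPKM (2.41), and CDCA5 (sororin), which protects cohesion, with 12.9 and 2.90 FPKM (2.11). The lowest belonged to CKAP5, a microtubule polymerase, with 4.35 FPKM with IMP1 and 62.3 FPKM with IgG (-3.81), ANAPC1, the largest APC/C subunit, with 1.25 and 18.8 FPKM (-3.81), and CKAP2L, a spindle protein, with 1.04 and 15.6 FPKM (-3.79). The roles given above and those that follow are to be read against the same 39.9% and 29.9% of all genes. Cohesin genes had 2 of 12 higher and 6 lower, and condensin genes 1 of 3 each way. Checkpoint and passenger genes had 4 of 7 higher and 1 lower, with the passenger genes INCENP and CDCA8 within 2-fold.

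Genes of S phase were used as a neighbouring set of the cell cycle. Of 50, 21 (42%) were higher and 13 (26%) lower, against 39.9% and 29.9% of all genes, and 14 were listed at 0 with IgG. Among the 36 above 0 in both libraries, 7 (19.4%) were higher and 13 (36.1%) lower, against 17.5% and 43.8% of all such genes. Their median log2 ratio came to 0.48 for all 50, -0.36 over those above 0 in both libraries and -0.88 where both levels were at or over 1 FPKM, and for the mitotic genes it was -0.13, -0.46 and -0.46, so that the order of both sets depends on the filter. CDT1, a licensing factor of replication origins, had 6.96 FPKM with IMP1 and 1.05 FPKM with IgG (2.62), TK1, a thymidine kinase, had 28.6 and 5.68 FPKM (2.31), and RPA3, a subunit of the single-strand binding protein, had 11.0 and 4.00 FPKM (1.43). At the other end RFC5, a subunit of the clamp loader, had 3.59 FPKM with IMP1 and 40.3 FPKM with IgG (-3.45), ORC6, of the origin recognition complex, had 2.34 and 17.4 FPKM (-2.84), and POLE2, of DNA polymerase epsilon, had 1.65 and 10.1 FPKM (-2.54).

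**Figure D5:**
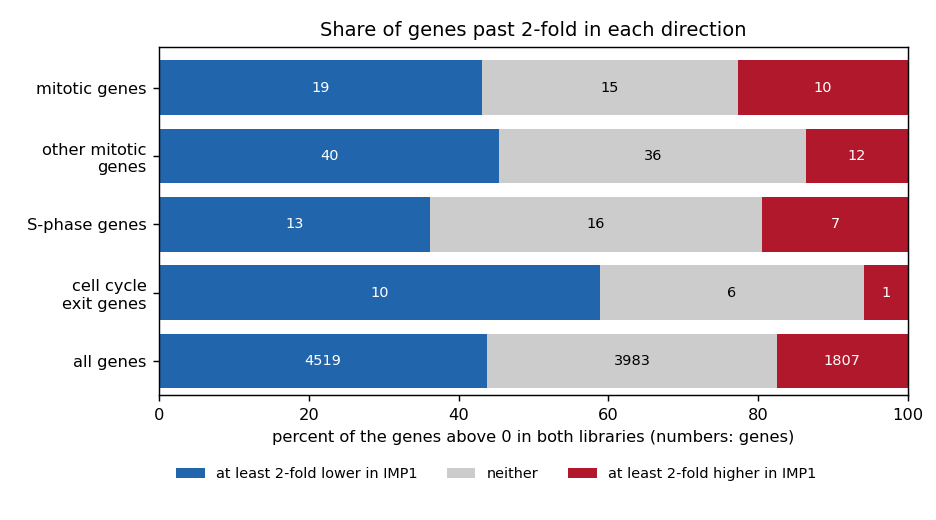
Percent of the genes above 0 in both libraries that were at least 2-fold lower with IMP1 (blue), within 2-fold (grey) or at least 2-fold higher (red), for the mitotic genes, other mitotic genes, S-phase genes, cell cycle exit genes (inhibitors of the cycle with the D and G cyclins) and all genes, with the number of genes in each part. The mitotic genes, with 19 lower and 10 higher of 44, have nearly the same share lower as all genes.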

How the data were processed

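Both libraries were made from T47D lysates by RIP with an IMP1 antibody or IgG, and RNA was extracted with TRIzol and sequenced at Shanghai Biotechnology Corporation. The authors deposited 1 FPKM value per gene and library, with zeros written as 1e-05, which were read as 0 here. Another 496 genes of the table have a value between 0 and 1e-05 in at least 1 library. Such values were kept as deposited, so they count as above 0, and none belongs to the 50 mitotic genes. The fold changes, p-values and q-values that the authors deposited beside them were not used. The build is hg19 per the submitters' processing notes, and the aligner, the counting tool and the annotation are not given in the sources used here. Locus starts count from 0, so 1 was added: of 9 mitochondrial protein genes, 7 starts then matched RefSeq and 0 did so as deposited. Read counts were not used, so the depth per sample and its precision are unknown.

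The log2 ratio of (FPKM + 0.1) was computed for 18781 genes with no filter, and genes past 2-fold were counted. The 50 genes, the role groups and the other lists were chosen with earlier results of these data known. Every mitotic gene is named with its values, and from the other mitotic and S-phase lists the 3 highest and 3 lowest ratios with 1 FPKM or more in each library. From the marker lists the highest gene of each library is named. Promoters came from RefSeq (GRCh38.p14). Alternatives were other pseudocounts, filters, scalings and thresholds. The counting code was run on simulated data of 18781 genes for the comparison of IMP1 with IgG, and 100% of the 200 genes given a known change came back. That run covers the code alone. The reliability of the calls in these libraries, near 2-fold or for genes listed at 0, was not tested. The software was Python 3.11.15 with matplotlib 3.10.9, pandas 2.3.3 and numpy 2.4.6.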

Additional observations from a re-analysis of the deposited data

How the results depend on the processing

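No replicate could be left out with 1 library per condition, and depth is unknown. No paired analysis was possible because nothing was tested. The number of mitotic genes higher with IMP1 (16) was 10 of 44 above 0 in both libraries (22.7%, against 17.5% of all such genes). It was 8 of 38 at or over 1 FPKM in both (21.1%, against 11.5%). With equal FPKM sums it was 30 (60%, against 63.7% of all genes), and at 4-fold 8 (16%, against 26.1%). The number lower (19) was 12 with the median gene set equal (24%, against 21.3% of all genes). It was 5 with equal sums (10%, against 13.0%) and 11 at 4-fold (22%, against 17.3%). The median log2 ratio (-0.13) was -0.46 with either filter on both libraries, 0.65 with the median gene set equal, 1.73 with equal sums and 0.43 with equal sums outside the 50 highest genes. For the other mitotic genes, the number higher (43) was 12 above 0 in both libraries (13.6%) and 6 with at least 1 FPKM in both (7.89%). With equal sums it was 75 (63.0%). The number lower (40) was 25 with the median gene set equal (21.0%), 8 with equal sums (6.72%) and 25 at 4-fold (21.0%). These shares are to be read against those of all genes under the same settings, given above. Equal sums turned the direction of BUB1 (0.51), BUB3 (0.35), CENPF (0.28), ECT2 (0.68), KIF23 (0.68), MKI67 (0.19) and NUSAP1 (0.55). The filters and thresholds leave out genes by construction and the scalings add a constant, and beyond that the cause was not tested. A pseudocount of 1 moved the call of 3 mitotic genes (KIF23, KIF4A and TTK) and one of 0.01 moved 0, while the calls of 14 moved with the median gene set equal and of 11 with equal sums outside the highest genes. Equal sums over all genes moved the calls of 21 and reversed 7.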

Other observations

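Genes that slow or leave the cell cycle, with the D and G cyclins, were read as a set of 20 beside the mitotic genes. With IMP1, 3 were at least 2-fold higher and 10 lower, and among the 17 above 0 in both libraries 1 was higher and 10 were lower. Of all genes 39.9% were higher and 29.9% lower, and of those above 0 in both libraries 17.5% and 43.8%. The set above 0 in both libraries had a median log2 ratio of -1.15 against -0.72 for all genes above 0 in both. Cyclin G2 (CCNG2) had 3.14 FPKM with IMP1 and 51.2 FPKM with IgG, for a log2 ratio of -3.98. The CDK inhibitors p27 (CDKN1B), with 3.08 and 39.4 FPKM, and p21 (CDKN1A), with 2.47 and 16.0 FPKM, were lower too, as was RBL2, a pocket protein of quiescent cells, with 1.24 and 11.5 FPKM. On the other side CDKN2C, the gene of the CDK4 and CDK6 inhibitor p18, had 4.48 FPKM with IMP1 and 0.418 FPKM with IgG, for a log2 ratio of 3.15. Cyclin D1 (CCND1), the G1 cyclin, was within 2-fold at 10.9 and 5.62 FPKM, and TOB1, an antiproliferative protein, was the highest of the set with IMP1, at 65.5 FPKM against 40.5 FPKM with IgG. The genes named here were chosen after their values were seen.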
